A study of Mus musculus with 8 samples.

Results

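The capsule of the lens is a thick basement membrane, and the data described here are the transcript levels of the genes that build it, of other extracellular matrix genes and of the integrins through which lens cells hold on to it. Genes were chosen by a rule on their symbols, set with earlier results of these data known. It covered every collagen chain except Col6a1, Col6a2 and Col6a3 of collagen VI, and every laminin chain. Also covered were genes whose symbol starts with Itga or Itgb followed by a digit, and Nid1, Nid2, Hspg2, Sparc, Fn1, Agrn, Fbln1 and Fbln2. Integrin subunits with a letter in place of the digit, such as αv (Itgav), were left out by the rule. The rule took 60 of the 8251 genes that the array names through a probe set with 1 symbol: 28 collagen chains, 9 laminin chains, 15 genes with an integrin-like symbol and 8 others. Of those 15, 13 are integrin subunits, while Itgb1bp1, a protein that binds the tail of integrin β1, and Itgb2l, a relative of integrin β2, came in by their symbols. Together they had 92 probe sets, and for the 23 genes with several the probe set with the highest mean signal stood for the gene.

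RNA came from whole lenses of mice 10 days old, of both sexes and of 2 inbred strains, 129SvJae and C57BL/6J, either wild type (WT) or α3Cx46 KO, in which the gene for the fiber gap junction protein connexin 46 (Gja3) is disrupted. The 4 groups were 129SvJae WT, 129SvJae KO, C57BL/6J WT and C57BL/6J KO, with 2 arrays each, and a sample was a pool of 20 to 30 lenses. The study asked which transcripts differ between strains in which the KO cataract takes a different course, and which differ between KO and WT lenses before any opacity is seen. The sources used here call the samples of a group separate but do not say whether their lenses came from different litters or days, so the p-values reflect sample-to-sample spread that may be only technical.

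The capsule is laid down by the lens epithelium in front and by the fiber cells behind, and it grows throughout life. Its collagen IV chains form a network joined to a laminin network by nidogen and the heparan sulfate proteoglycan perlecan, and SPARC, which binds collagen IV, is needed for an intact capsule and a clear lens. Epithelial and fiber cells attach to the capsule mainly through integrins that contain the β1 subunit.

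Gja3, the targeted gene, had signals of 1101 and 3383 (129SvJae WT), 473 and 445 (129SvJae KO), 1969 and 3276 (C57BL/6J WT) and 448 and 519.8 (C57BL/6J KO), so every KO array was below every WT array. All 6 lens fiber markers and all 5 lens epithelium markers on the array were above a signal of 50 on all 8 arrays. The summed fiber signal was 224086 to 280919 in 129SvJae WT, 161334 to 218496 in 129SvJae KO, 202513 to 297420 in C57BL/6J WT and 187948 to 230958 in C57BL/6J KO, with both KO sums below both WT sums in 129SvJae and a median KO over WT log2 ratio of -0.35. The sums came mostly from the crystallin genes Cryaa, Cryba1, Crybb2 and Crygs, each higher on replicate 1 than on replicate 2 in every group. In 129SvJae the other fiber markers overlapped between WT and KO. Mip was 12019 and 14703 in WT and 14248 and 11002 in KO lenses, and Bfsp1 was 22030 and 29142 in WT and 24660 and 24008.5 in KO lenses. The epithelium sums lay between 4608 and 5494 on all arrays, with a median KO ratio of 0.15, and none of these markers passed the averaged strain or KO comparison. The part of the fiber and epithelium levels in the KO ratios given for laminins and collagens was not tested. The ratio of the 3′ to the 5′ actin control probe set, a measure of RNA integrity, was 3.10 on 129SvJae WT replicate 1 and 2.02 on C57BL/6J WT replicate 1 and lay between 1.21 and 1.78 on the other 6 arrays. The same ratio for the Gapdh control differed less, at 1.28 and 1.22 on those arrays and 0.90 to 1.09 on the other 6. Every replicate 1 array was read in the first scan session and every replicate 2 array in the third, except 129SvJae WT replicate 2, which had a session to itself. A fluidics error is recorded for C57BL/6J WT replicate 1.

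Of the 60 genes, 29 had a signal above 50, the level the study's methods set, on all 8 arrays, 27 on 1 to 7 arrays and 4 on none. Among the collagen chains 12 of 28 were above it on all arrays, against 5 of 9 laminin chains, 7 of 15 integrin genes and 5 of the 8 others. The 4 that stayed below it on every array were Col22a1, Col3a1, Lamb2 and Nid2. Testing required a group mean over 50 somewhere among the 4 groups, which 50 genes met, and the 10 not tested were those 4 with Col11a2, Col17a1, Col4a3, Itgb4, Lama3 and Lamb3. Of the 50, 36 had a mean over 50 in all 4 groups and 14 in 1 to 3 of them. Col11a1 passed only through its C57BL/6J groups and Itga8 only through its WT groups, so the filter kept them by the groups where they are high. In RNA from whole lenses, fewer cells of a type and less RNA per cell cannot be told apart.

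None of the 50 genes tested, which leave out Col6a1, Col6a2 and Col6a3, passed an adjusted p of 0.05 from limma in any of the 7 comparisons. For the strain difference averaged over genotypes, 0 of 50 passed where 0.367% of all 10078 probe sets tested did; 3 of the 50 had an unadjusted p under 0.05, against 6.98% of all. In WT lenses alone the strain comparison passed for 0 of 50 (0.0695% of all) with 5 at an unadjusted p under 0.05 (6.47% of all), and in KO lenses for 0 of 50 (0.0893%) with 5 under 0.05 (3.74%). The KO effect averaged over strains passed for 0 of 50 (0.0198% of all), and 5 had an unadjusted p under 0.05 (3.05%). Within 129SvJae, 0 passed (0% of all) and 3 were under 0.05 (3.12%). Within C57BL/6J, 0 passed (0.00992%) and 4 were under 0.05 (2.31%). The interaction, which asks whether the KO effect differs between strains, gave 0 passing (0% of all) and 1 under 0.05 (2.11%). The methods' t-test also passed none of the 50 after adjustment in any comparison, with 3, 2, 2, 5, 3, 1 and 2 at an unadjusted p under 0.05 in the same order, against 7.81%, 4.63%, 5%, 3.68%, 3.77%, 3.37% and 2.83% of all probe sets. With the replicate number as a block, 0 of the 50 passed and 7, 6, 5, 10, 5, 6 and 2 were under 0.05, against 9.29%, 9.07%, 5.27%, 4.97%, 5.29%, 3.73% and 3.44% of all. The study's criteria named no adjustment: a fold change of at least 1.8, a level above 50 and p of at most 0.01. With the p of the methods' own test, 2, 0, 0, 1, 2, 0 and 0 of the 50 met them in the same order. Of all 10078 probe sets 129, 51, 46, 46, 32, 28 and 41 did. With the unadjusted limma p the counts were 2, 2, 1, 1, 1, 1 and 0, against 138, 147, 81, 25, 30, 37 and 25 of all. All these comparisons draw on the same 8 arrays.

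Overlap between groups was counted without the level filter, over all 60 genes. All 4 C57BL/6J arrays were above all 4 129SvJae arrays for Nid1 and Col11a1, 2 of 60, where 2.59% of all 12422 probe sets did this, and the reverse held for 0 of 60 (2.27% of all). All 4 KO arrays were below all 4 WT arrays for Col8a1 and Itga8, 2 of 60 (1.26% of all), and above them for 0 of 60 (0.861% of all). The median log2 ratio of C57BL/6J over 129SvJae was 0.03 over the 50 genes and 0.01 over all probe sets, and 28 of the 50 ratios were positive. The median log2 ratio of KO over WT was -0.08 over the 50 and -0.02 over all, with 23 positive. The plot of strain ratios gives each tested gene with its error.

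**Figure D1:**
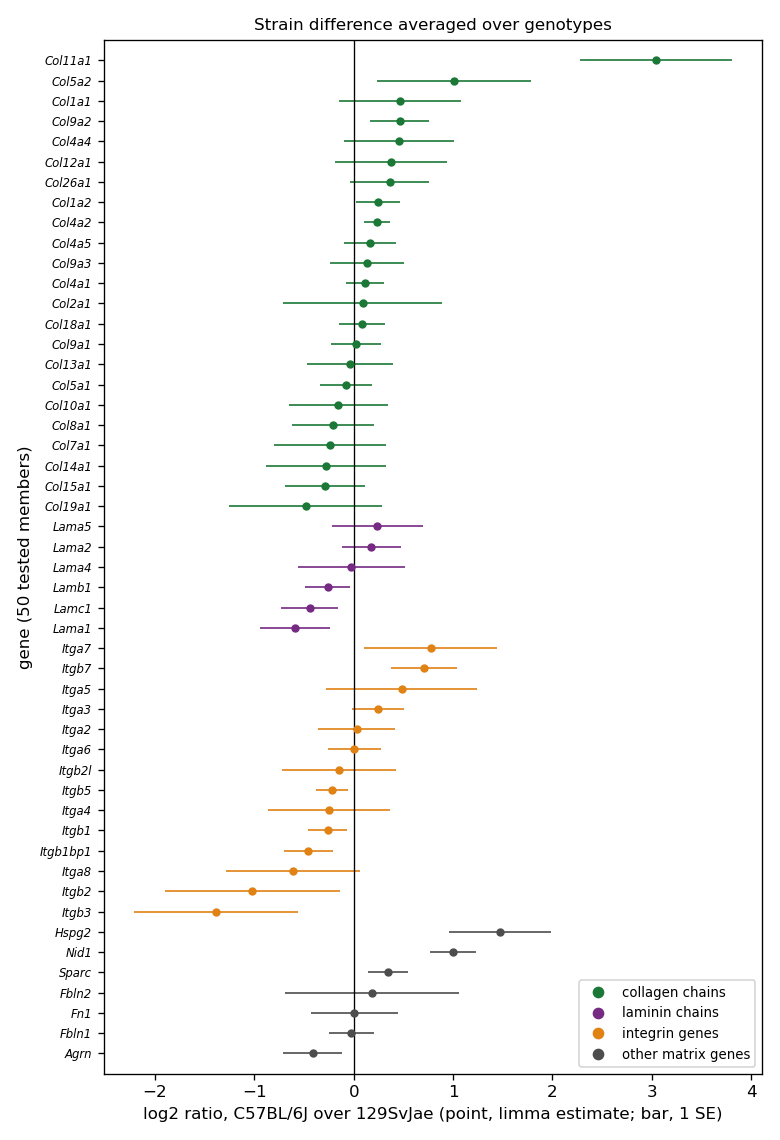
Log2 ratio of C57BL/6J over 129SvJae, averaged over WT and KO lenses, for the 50 capsule and matrix genes tested, grouped by gene family; points are limma estimates and bars are 1 standard error. Col11a1, Hspg2 and Nid1 lie farthest to the right in units of their error, at 3.04, 1.47 and 1.0004, and none of the 50 passed an adjusted p of 0.05.

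Collagen IV, the network-forming collagen of basement membranes, was measured through 5 chains. Col4a1 and Col4a2 encode the α1 and α2 chains, which join as α1α1α2 in nearly every basement membrane. Signals of Col4a1 were 10719.5 and 5705 (129SvJae WT), 6049.5 and 5604 (129SvJae KO), 9235 and 6473 (C57BL/6J WT) and 7094 and 6661 (C57BL/6J KO). The highest were on replicate 1 of both WT groups, which are also the arrays with the highest actin ratios, and the strains overlapped. The averaged strain log2 ratio of Col4a1 was 0.11 (SE 0.19, adjusted p = 0.958) and the averaged KO ratio -0.30 (SE 0.19, adjusted p = 0.998).

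Col4a2 varied less, with signals of 8927 and 8399.9 (129SvJae WT), 10023 and 8751 (129SvJae KO), 10021 and 11894 (C57BL/6J WT) and 9944 and 10519.9 (C57BL/6J KO). Every WT array of C57BL/6J was above both WT arrays of 129SvJae, while the KO arrays overlapped. Its averaged strain log2 ratio was 0.23 (SE 0.13, adjusted p = 0.83), and the averaged KO ratio was 0.01 (SE 0.13, adjusted p = 0.998). Across the 8 arrays the log2 signals of Col4a1 and Col4a2 had a Pearson r of 0.00799 (exact permutation p = 0.984) and a Spearman rho of 0.238 (exact permutation p = 0.582), and r was 0.668 without the 2 arrays farthest from the median of Col4a1.

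Col4a1 and Col4a2 lie head to head in the genome and share the region where their transcripts start. In GRCm38.p6, Col4a1 is read from the minus strand (chr8:11198423-11312889) and Col4a2 from the plus strand (chr8:11312805-11449287), so that their extents overlap. The stretch of 22 bases between the start sites used in the RefSeq promoter windows, at chr8:11312805-11312826, lies inside both genes, and it is shown, on the plus strand, because it joins the pair whose signals are compared above. Capitals mark a GC box (GGGCGG, or CCGCCC on the other strand), the letters that Sp1-type factors bind.

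Col4a1 and Col4a2: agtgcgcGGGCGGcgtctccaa

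The other collagen IV chains have a narrower tissue range. Col4a5, whose chain joins α3 and α4 in the networks of kidney, lens and cochlea, had signals of 622 and 808 (129SvJae WT), 750.5 and 1033 (129SvJae KO), 504 and 1289.9 (C57BL/6J WT) and 843 and 1119 (C57BL/6J KO). In each group replicate 2 was above replicate 1, and the groups overlapped; the averaged log2 ratios were 0.16 (SE 0.27, adjusted p = 0.958) for strain and 0.29 (SE 0.27, adjusted p = 0.998) for KO. Col4a4, the α4 chain, had signals of 52.2 and 108 (129SvJae WT), 190.0 and 75.1 (129SvJae KO), 31.4 and 167 (C57BL/6J WT) and 244 and 224 (C57BL/6J KO). Both KO arrays of C57BL/6J were above both WT arrays, and in 129SvJae KO and WT overlapped. The KO log2 ratio of Col4a4 was 1.69 (SE 0.78, adjusted p = 0.9999) in C57BL/6J and 1.18 (SE 0.55, adjusted p = 0.998) averaged over strains. The C57BL/6J value was 0.48 without C57BL/6J WT replicate 1, the low array, and 2.89 when replicate 2 was left out instead. Col4a3, the α3 chain, was above 50 on 1 array and was not tested, with signals from 9 to 60.5.

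Collagens XV and XVIII are basement membrane collagens that carry glycosaminoglycan chains, and the end of the collagen XVIII chain is released as endostatin. Col18a1 had signals of 683 and 572 (129SvJae WT), 566 and 424 (129SvJae KO), 650.5 and 343 (C57BL/6J WT) and 717 and 743 (C57BL/6J KO). The C57BL/6J KO arrays were the highest of the 8 and lay close together, and the interaction log2 ratio was 0.98 (SE 0.46, adjusted p = 0.9998). Its averaged strain ratio was 0.09 (SE 0.23, adjusted p = 0.974), and 2 of its other probe sets gave negative ratios of -1.20 and -1.01. Col15a1 lay between 64.1 and 122 on all arrays and had averaged ratios of -0.29 (SE 0.40, adjusted p = 0.952) for strain and -0.25 (SE 0.40, adjusted p = 0.998) for KO.

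**Figure D2:**
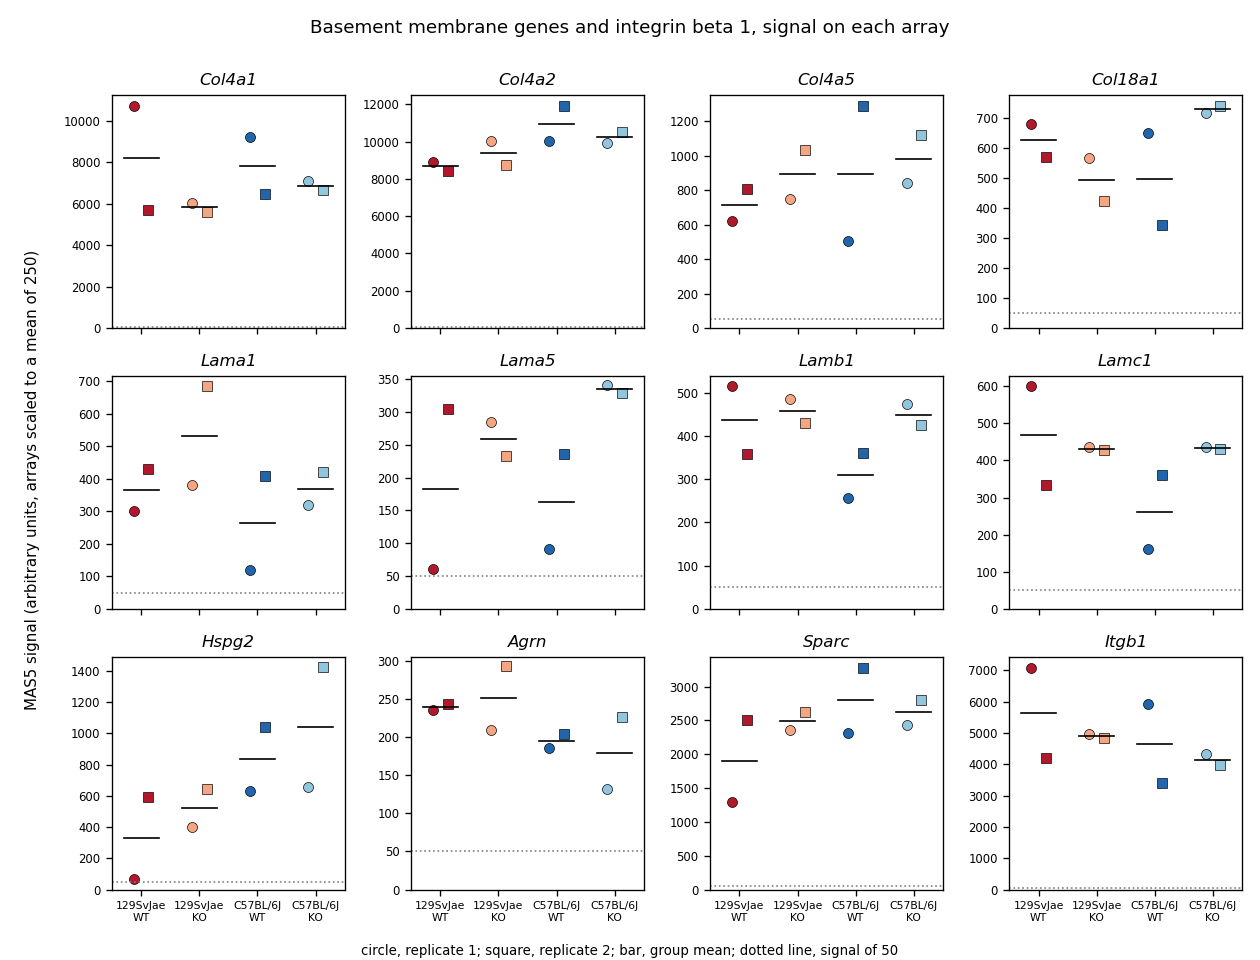
Signals (arbitrary units, arrays scaled to a mean of 250, linear axes from 0) of 12 genes, basement membrane components and integrin β1, on each array; circles are replicate 1, squares replicate 2, black bars group means of 2 arrays, and the dotted line a signal of 50. Lama1, Lama5 and Hspg2 were low on replicate 1 of a WT group, Col4a1 and Itgb1 were highest there, and no gene shown separates the 4 KO from the 4 WT arrays.

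Laminins are trimers of an α, a β and a γ chain and form the second network of the capsule. All 6 laminin chains tested had a positive KO over WT ratio on the probe set standing for the gene, where 4767 of all 10078 probe sets did. Their median log2 ratio was 0.50 against -0.02 over all probe sets, and none passed the test. Lama5, the α5 chain found in most adult basement membranes, had the lowest unadjusted p of them. Its signals were 61.3 and 305 (129SvJae WT), 285 and 233 (129SvJae KO), 90.6 and 236 (C57BL/6J WT) and 341 and 329.7 (C57BL/6J KO). The WT arrays of replicate 1 were low, the WT arrays of replicate 2 were within the range of the KO arrays, and the averaged KO log2 ratio was 1.06 (SE 0.46, adjusted p = 0.998). Second probe sets of Lama5 and Lamb1 gave averaged KO ratios of -0.19 and -0.21, and those of Lama4 and Lamc1 gave 0.69 and 0.36.

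The other α chains had the same low arrays. Lama1, the α1 chain made early in the lens, had signals of 302 and 431 (129SvJae WT), 382 and 685 (129SvJae KO), 121 and 408 (C57BL/6J WT) and 319 and 420.5 (C57BL/6J KO), with an averaged KO log2 ratio of 0.61 (SE 0.35, adjusted p = 0.998) and a strain ratio of -0.59 (SE 0.35, adjusted p = 0.852). Lama2, the α2 chain better known from muscle, had signals of 172 and 318 (129SvJae WT), 260.2 and 270.4 (129SvJae KO), 206 and 356 (C57BL/6J WT) and 252 and 339.9 (C57BL/6J KO) and a KO ratio of 0.15 (SE 0.30, adjusted p = 0.998). Lama4, the α4 chain of vessel walls, had signals of 31.0 and 69.9 (129SvJae WT), 133 and 76.6 (129SvJae KO), 39.5 and 62.7 (C57BL/6J WT) and 124 and 67.2 (C57BL/6J KO) and a KO ratio of 0.996 (SE 0.54, adjusted p = 0.998). For all 4 α chains the 2 lowest of the 8 signals were those of replicate 1 of the WT groups, the arrays with actin ratios of 3.10 and 2.02. With both of these arrays left out, the median KO ratio of the 6 laminin genes was 0.23 with 5 positive, and that of Lama5 was 0.13, while Lama5 was 0.48 without 129SvJae WT replicate 1 and 1.64 without 129SvJae WT replicate 2; without C57BL/6J WT replicate 1 alone the median was 0.19, and with no level filter 7 of 9 were positive.

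Lamb1 and Lamc1 encode the β1 and γ1 chains, which most laminin trimers share. Signals of Lamb1 were 516 and 359 (129SvJae WT), 486 and 429.6 (129SvJae KO), 257 and 361 (C57BL/6J WT) and 474 and 425 (C57BL/6J KO). Those of Lamc1 were 600.4 and 334 (129SvJae WT), 435 and 429 (129SvJae KO), 162 and 360.1 (C57BL/6J WT) and 437 and 429.8 (C57BL/6J KO). Both genes had their highest signal on 129SvJae WT replicate 1 and their lowest on C57BL/6J WT replicate 1, and the KO arrays of both strains lay close together. Across the 8 arrays the log2 signals of Lamb1 and Lamc1 had a Pearson r of 0.959 (exact permutation p = 9.92e-05, 0.000298 adjusted over the 3 pairs computed) and a Spearman rho of 0.952 (exact permutation p = 0.00114). The r was 0.919 without the 2 arrays farthest from the median of Lamb1 and 0.939 with each group's mean taken off. With arrays centred on the median, r was 0.976 and rho 0.833 (exact permutation p = 0.0154). In that setting r was 0.726 without the 2 arrays farthest from the median of Lamb1. The permutations shuffled all 8 arrays freely, so these p-values do not allow for groups or shared scan sessions. A scan session holds at most 4 arrays, too few for an r within it.

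This pair is measured by probe sets of the _f_at kind, whose oligonucleotides may match several sequences, and the sources used here do not say whether they share any. A second Lamb1 probe set gave signals of 216 and 136 (129SvJae WT), 146 and 247 (129SvJae KO), 299.9 and 213 (C57BL/6J WT) and 127 and 230.4 (C57BL/6J KO), where C57BL/6J WT replicate 1 was the highest array and not the lowest. The averaged strain log2 ratio of Lamb1 was -0.26 from the first and 0.21 from the second probe set. For Lamc1 the strain ratio in WT lenses was -0.89 (SE 0.40, adjusted p = 0.765), and it was 0.11 with both arrays of the highest actin ratio left out. Leaving out 1 array, it was -0.47 without 129SvJae WT replicate 1, -0.32 without C57BL/6J WT replicate 1, whereas dropping replicate 2 of that group gave -1.47. A second, dimmer Lamc1 probe set gave signals of 109 and 54.0 (129SvJae WT), 51.9 and 22.7 (129SvJae KO), 8.5 and 27.0 (C57BL/6J WT) and 66.3 and 46.8 (C57BL/6J KO). It too was highest on 129SvJae WT replicate 1 and lowest on C57BL/6J WT replicate 1, its strain ratio in WT lenses was -2.34 (SE 0.99, adjusted p = 0.743), and the mean of both probe sets gave -1.62. Lamb2, the β2 chain, and Lamb3 and Lama3, chains of an epidermal laminin, were not tested, and their signals lay at 7.3 to 31.8, 13.1 to 50.4 and 10.2 to 65.0.

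**Figure D3:**
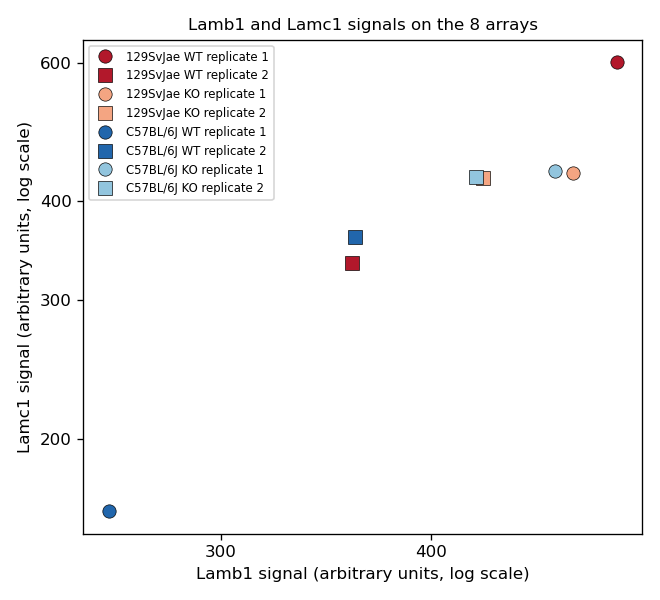
Signals of Lamb1 (horizontal, log axis, arbitrary units) and Lamc1 (vertical, log axis, arbitrary units) on the 8 arrays, coloured by group, with circles for replicate 1 and squares for replicate 2. The points run from C57BL/6J WT replicate 1 at the lower left, at 257 and 162, to 129SvJae WT replicate 1 at the upper right, at 516 and 600.4, with r = 0.959.

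Nid1 encodes nidogen 1, the link between the laminin and the collagen IV networks, and of all capsule genes it had the lowest unadjusted p for strain. Its signals were 292 and 279.5 (129SvJae WT), 259 and 331 (129SvJae KO), 487 and 771 (C57BL/6J WT) and 468 and 638 (C57BL/6J KO). Every C57BL/6J array was above every 129SvJae array, in WT and in KO lenses alike. The group means were 286 ± 8.63 and 295 ± 50.8 in 129SvJae WT and KO and 629 ± 201 and 553 ± 121 in C57BL/6J WT and KO (SD, n = 2). The averaged strain log2 ratio from limma was 1.0004 (SE 0.23, adjusted p = 0.136) with an unadjusted p of 0.000879, and it did not pass. With the replicate number as a block the adjusted p was 0.0572, the lowest over 20 alternatives, and the highest was 0.577. In WT lenses the ratio was 1.10 and in KO lenses 0.90, and the averaged KO ratio was -0.06 (SE 0.23, adjusted p = 0.998). Nid2, the other nidogen, stayed between 2.3 and 18.5.

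The bases before the Nid1 start are shown because, of the genes above 50 on all 8 arrays, Nid1 was the 1 whose strains did not overlap, and the GRCm38.p6 reference is itself C57BL/6J. They lie at chr13:13437352-13437601 on the plus strand, directly before the gene (chr13:13437602-13512275), and run 5′ to 3′ with capitals for a CCAAT box (CCAAT, here as ATTGG on the other strand) and a GC box.

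Nid1: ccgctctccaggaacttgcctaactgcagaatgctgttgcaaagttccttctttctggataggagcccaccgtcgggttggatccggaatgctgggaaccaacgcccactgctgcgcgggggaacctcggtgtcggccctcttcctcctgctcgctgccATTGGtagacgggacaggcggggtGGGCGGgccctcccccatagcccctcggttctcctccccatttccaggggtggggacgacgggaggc

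The window holds 1 of each and no TATAAA. Of 32851 windows of 250 bases before a start in the RefSeq table, 32.7% hold a GC box, 33.8% a CCAAT box and 12.4% a TATAAA on either strand. The table has 46 windows for 40 of the 60 genes, of which 24 (52.2%) hold a GC box, 12 (26.1%) a CCAAT box and 5 (10.9%) a TATAAA. These are letter matches and not measured binding, and no 129SvJae sequence was used here.

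Hspg2 encodes perlecan, the heparan sulfate proteoglycan that spans the capsule networks. Its signals were 67.6 and 596 (129SvJae WT), 401 and 642 (129SvJae KO), 629 and 1044 (C57BL/6J WT) and 657 and 1424 (C57BL/6J KO). One array decides the comparison: 129SvJae WT replicate 1 was far below the other 7, it had the highest actin ratio of 3.10, and replicate 2 was above replicate 1 in every group. Averaged over genotypes, the strain log2 ratio was 1.47 (SE 0.51, adjusted p = 0.449), and in WT lenses it was 2.01 (SE 0.73, adjusted p = 0.665). Without 129SvJae WT replicate 1 they were 0.69 and 0.44. With the scan session as a block they were 2.05 and 3.16 and passed (adjusted p = 0.00145 and 0.00347), as did the KO effect in 129SvJae at 2.49 (adjusted p = 0.0460). Without 129SvJae WT replicate 2 they also passed, at 2.26 and 3.58 (adjusted p = 0.00679 and 0.0105). In both of these fits the low array alone stands for 129SvJae WT, since replicate 2 is the only array of its session. The part of RNA integrity in this difference was not tested.

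Sparc had signals of 1288 and 2500.4 (129SvJae WT), 2363 and 2626 (129SvJae KO), 2319 and 3280.1 (C57BL/6J WT) and 2429 and 2808 (C57BL/6J KO). The lowest was again 129SvJae WT replicate 1, and replicate 1 was below replicate 2 in all 4 groups. The strain log2 ratio in WT lenses was 0.62 (SE 0.29, adjusted p = 0.768), and 0.14 without 129SvJae WT replicate 1, 1.10 without 129SvJae WT replicate 2 and 0.37 without C57BL/6J WT replicate 2. Averaged over genotypes the ratio was 0.34 (SE 0.20, adjusted p = 0.842), and for KO it was 0.20 (SE 0.20, adjusted p = 0.998).

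Agrn encodes agrin, a heparan sulfate proteoglycan that binds laminin. Its signals were 236 and 244 (129SvJae WT), 209.5 and 293 (129SvJae KO), 185 and 204 (C57BL/6J WT) and 131 and 227 (C57BL/6J KO), with strains overlapping in KO lenses and both C57BL/6J WT arrays below both 129SvJae WT arrays. Averages gave a strain log2 ratio of -0.41 (SE 0.30, adjusted p = 0.886), and the KO ratio was -0.06 (SE 0.30, adjusted p = 0.998). A second Agrn probe set, above 50 on all arrays, gave averaged ratios of -0.75 for strain and 0.56 for KO. Fn1 encodes fibronectin, a matrix protein that integrins bind and that is more plentiful around mesenchymal cells. Signals of Fn1 were 88.4 and 192 (129SvJae WT), 126 and 152 (129SvJae KO), 46.1 and 112 (C57BL/6J WT) and 378 and 169.8 (C57BL/6J KO). Both C57BL/6J KO arrays were above both C57BL/6J WT arrays, while the 129SvJae groups overlapped. The KO log2 ratio of Fn1 was 1.82 (SE 0.62, adjusted p = 0.9999) in C57BL/6J and 0.95 (SE 0.44, adjusted p = 0.998) averaged over strains, and the averaged value was 0.36 with both arrays of the highest actin ratio left out. Without C57BL/6J WT replicate 1 they were 1.18 and 0.63.

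Fibulins bind elastic fibers and basement membranes. Fbln1 ranged from 276 to 437 and had an averaged strain log2 ratio of -0.02 (SE 0.23, adjusted p = 0.991), with ratios of 0.42, 0.46 and -0.45 from its other probe sets. Fbln2 was above 50 on 4 arrays, ranged from 12.6 to 136 and had an averaged KO ratio of -0.83 (SE 0.88, adjusted p = 0.998).

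Col11a1, outside the basement membrane, encodes a chain of collagen XI, which seeds the fibrils of cartilage and of the vitreous body next to the lens. Its signals were 9.2 and 8.2 (129SvJae WT), 14.7 and 6.1 (129SvJae KO), 125 and 57.7 (C57BL/6J WT) and 80.7 and 53.5 (C57BL/6J KO). All 129SvJae arrays were below 50 and all C57BL/6J arrays above it, so the gene was tested because of the strain in which it is high. The averaged strain log2 ratio was 3.04 (SE 0.77, adjusted p = 0.174), with 3.29 in WT and 2.79 in KO lenses. Signals this low have little over background, so the size of the ratio rests on 129SvJae signals of 6.1 to 14.7, and with every signal under 50 set to 50 the ratio was 0.58. Its direction was the same in all 19 alternatives, but leaving out an array could not turn it, since the strains did not overlap.

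Col8a1 encodes a short-chain collagen of the sheet-like matrix under corneal endothelium and in vessel walls, and it gave the lowest unadjusted p for KO. Its signals were 140.2 and 172 (129SvJae WT), 75.1 and 65.7 (129SvJae KO), 203 and 173 (C57BL/6J WT) and 35.5 and 53.9 (C57BL/6J KO). Every KO array was below every WT array in both strains. Group means were 156 ± 22.8 in WT and 70.4 ± 6.65 in KO lenses of 129SvJae, and 188 ± 21.1 in WT and 44.7 ± 13 in KO lenses of C57BL/6J (SD, n = 2). The averaged KO log2 ratio was -1.62 (SE 0.41, adjusted p = 0.998) with an unadjusted p of 0.00166, and it ran from -1.77 to -1.47 over 20 alternatives, none of which passed. The ratio was -1.15 in 129SvJae and -2.10 in C57BL/6J.

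Collagen IX chains coat cartilage and vitreous fibrils. Col9a1 had signals of 337 and 384 (129SvJae WT), 160.2 and 219 (129SvJae KO), 265 and 253 (C57BL/6J WT) and 241 and 299 (C57BL/6J KO). Both 129SvJae KO arrays were below the other 6 arrays, with a KO log2 ratio of -0.94 (SE 0.36, adjusted p = 0.9998) in 129SvJae. Col9a2 had signals of 376 and 413 (129SvJae WT), 166 and 187 (129SvJae KO), 412 and 318 (C57BL/6J WT) and 578 and 229 (C57BL/6J KO). Again both 129SvJae KO arrays were the lowest, at a KO ratio of -1.16 (SE 0.42, adjusted p = 0.9998), and in C57BL/6J the KO arrays lay on both sides of the WT arrays. Col9a3 ranged from 84.3 to 296, with an averaged KO ratio of -0.49 (SE 0.37, adjusted p = 0.998). For none of these 3 did the interaction pass, and its log2 ratios for Col9a1 and Col9a2 were 0.99 (SE 0.51, adjusted p = 0.9998) and 1.17 (SE 0.59, adjusted p = 0.9998).

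**Figure D4:**
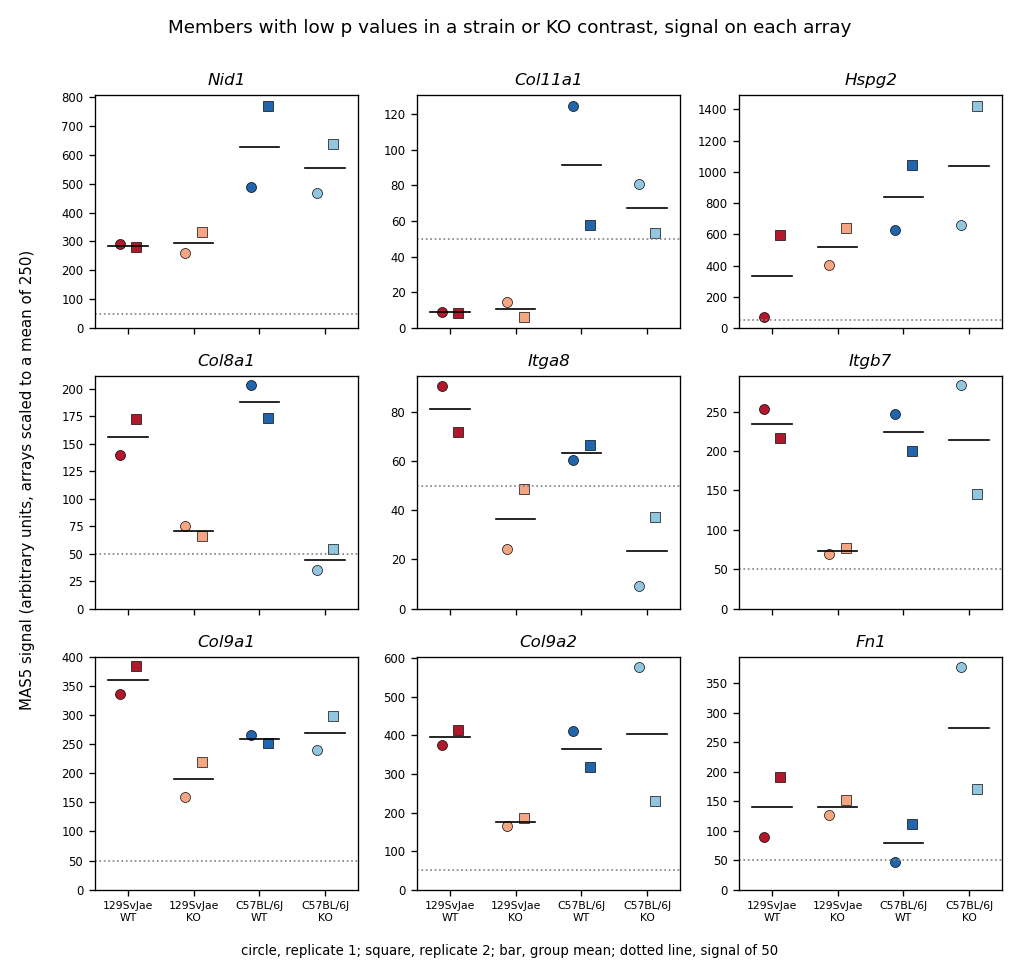
Signals (arbitrary units, arrays scaled to a mean of 250, linear axes from 0) on each array for 9 genes with low unadjusted p-values in a strain or KO comparison; circles are replicate 1, squares replicate 2, black bars group means of 2 arrays, and the dotted line a signal of 50. Nid1 and Col11a1 separate the strains and Col8a1 and Itga8 separate KO from WT lenses, whereas the low Itgb7, Col9a1 and Col9a2 signals are those of 129SvJae KO.

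The fibrillar collagens of connective tissue were at or near background for the most part. Col1a1, the α1 chain of collagen I, was above 50 on 3 arrays, ranged from 26.3 to 123 and had an averaged KO log2 ratio of 0.92 (SE 0.61, adjusted p = 0.998). Col1a2, the α2 chain, ranged from 408 to 711 on a probe set of the _r_at kind, designed under looser rules, whereas its other probe set lay between 8.9 and 30.3 on the same arrays. Col3a1, Col2a1 and Col5a2, chains of collagens III, II and V, ranged over 15.8 to 49.5, 16.4 to 94.6 and 7.7 to 115. Col5a1 was above 50 on all arrays, at 234 to 458, while its other probe set lay between 10.6 and 31.5, and it had averaged ratios of -0.08 (SE 0.26, adjusted p = 0.976) for strain and -0.29 (SE 0.26, adjusted p = 0.998) for KO. The r of Col1a1 with Col1a2 across the 8 arrays was -0.376 (exact permutation p = 0.375). Of the 23 collagen chains tested, 16 had a negative KO ratio, with a median of -0.25 against -0.02 over all probe sets, and 1 (Col8a1) had an unadjusted p under 0.05. The median ran from -0.40 without C57BL/6J WT replicate 2 to -0.16 without C57BL/6J KO replicate 2. In 129SvJae alone 12 of 23 were negative with a median of -0.35, which was 0.01 with the mean of each gene's probe sets and close to 0 without 129SvJae KO replicate 2, and in C57BL/6J alone 15 were negative with a median of -0.17, which was 0.02 without C57BL/6J KO replicate 2. The 7 tested chains not named so far (Col7a1, Col10a1, Col12a1, Col13a1, Col14a1, Col19a1 and Col26a1) had averaged strain ratios from -0.49 to 0.37 and KO ratios from -1.20 (Col7a1, the collagen of anchoring fibrils) to 0.52 (Col12a1, which decorates fibril surfaces).

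Integrins join an α and a β subunit into a receptor across the cell membrane. Itgb1, the β1 subunit that pairs with most matrix-binding α subunits, had signals of 7086 and 4213 (129SvJae WT), 4960.4 and 4852 (129SvJae KO), 5932 and 3398 (C57BL/6J WT) and 4316 and 3991 (C57BL/6J KO). As with Col4a1, replicate 1 of the WT groups was highest, and the averaged log2 ratios were -0.26 (SE 0.20, adjusted p = 0.895) for strain and -0.13 (SE 0.20, adjusted p = 0.998) for KO. Its second probe set gave a strain ratio of 0.05. Among its partners, the laminin-binding subunit Itga6 ranged from 245 to 431 with a strain ratio of 0.01 (SE 0.27, adjusted p = 0.998), and Itga3, which also binds laminin, from 172 to 369 with a ratio of 0.24 (SE 0.26, adjusted p = 0.946). A second Itga3 probe set, above 50 on all arrays, gave a strain ratio of 0.65 averaged and 1.07 in WT lenses. The averaged KO ratio of Itga3 was -0.35 from the first and 0.25 from the second probe set. Itga5, the fibronectin-binding subunit, was above 50 on 4 arrays, at 15.2 to 88.2, and Itgb4, the β4 subunit that pairs with α6, on 1 array. Itgb5, which pairs with αv and binds vitronectin, ranged from 1044 to 1548, and its ratios were -0.21 (SE 0.16, adjusted p = 0.895) for strain and 0.07 (SE 0.16, adjusted p = 0.998) for KO, with a strain ratio of 0.24 from a second probe set.

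Itgb7 and Itga8 had the lowest unadjusted p-values for KO among the integrins. Itgb7, a β subunit known from lymphocytes, had signals of 253 and 216 (129SvJae WT), 69.4 and 76.4 (129SvJae KO), 247 and 201 (C57BL/6J WT) and 283 and 145 (C57BL/6J KO). The 129SvJae KO arrays were the lowest, and the other groups overlapped. The KO log2 ratio was -1.68 (SE 0.47, adjusted p = 0.9998) in 129SvJae, the strain ratio in KO lenses was 1.48 (SE 0.47, adjusted p = 0.984), and the interaction was 1.55 (SE 0.67, adjusted p = 0.9998) with an unadjusted p of 0.0368. Its second probe set stayed between 6.9 and 25.3 on all arrays. Itga8, the α8 subunit known from kidney and smooth muscle, had signals of 90.4 and 71.6 (129SvJae WT), 24.3 and 48.5 (129SvJae KO), 60.2 and 66.6 (C57BL/6J WT) and 9.4 and 37.2 (C57BL/6J KO). Every KO array was below 50 and every WT array above it, so that the gene was tested because of its WT groups, with an averaged KO log2 ratio of -1.49 (SE 0.67, adjusted p = 0.998), and the ratio was -0.51 with signals under 50 set to 50. The other Itga8 probe set lay between 7.1 and 29.3 on all arrays, and there KO and WT overlapped.

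Itgb1bp1 showed how far probe sets of a gene can part. The probe set with the highest mean had signals of 570.3 and 1294 (129SvJae WT), 854 and 902 (129SvJae KO), 685 and 990.2 (C57BL/6J WT) and 447 and 529 (C57BL/6J KO) and a strain log2 ratio of -0.85 (SE 0.35, adjusted p = 0.9997) in KO lenses, where the mean of its 3 probe sets gave 0.37. Averaged over genotypes the 3 probe sets gave -0.46, 0.02 and 1.45. Itga4, Col13a1 and Fbln1 also had probe sets whose averaged strain ratios differed in sign, as did Col18a1, Itgb1, Itgb5 and Lamb1 above. The 4 integrin genes not yet named (Itga2, Itga7, Itgb2 and Itgb3) and Itgb2l had averaged strain ratios from -1.39 (Itgb3) to 0.78 (Itga7).

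**Figure D5:**
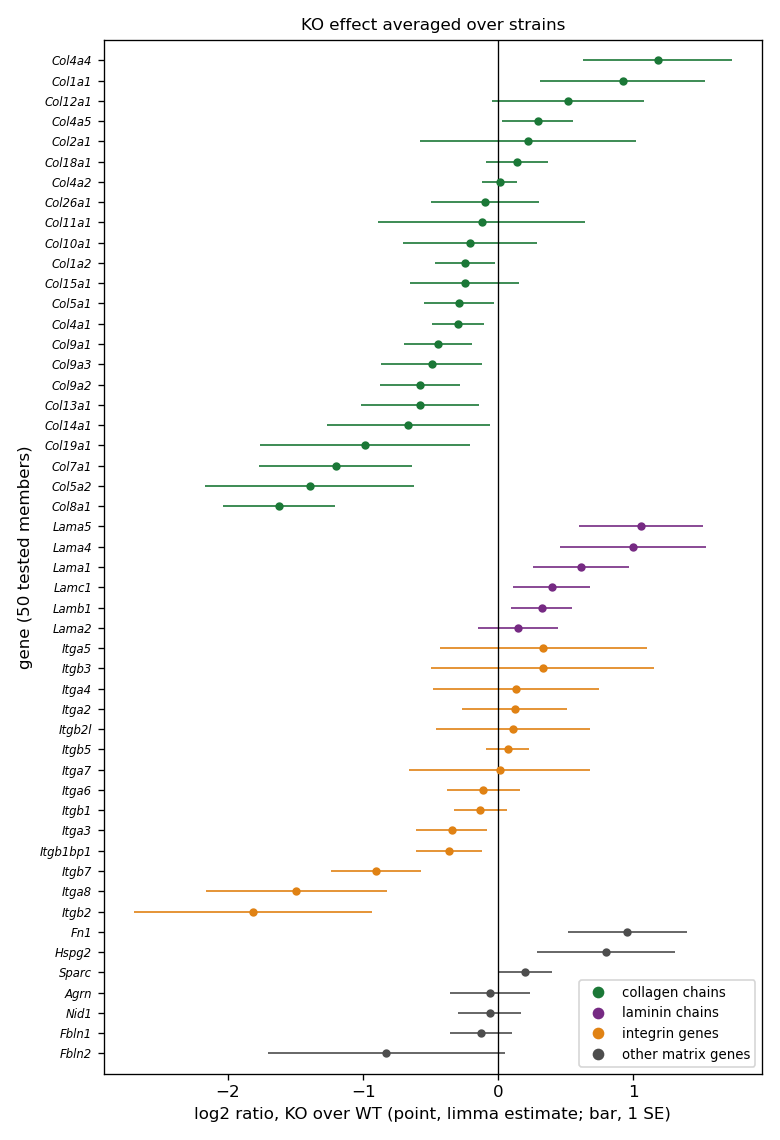
Log2 ratio of KO over WT, averaged over both strains, for the 50 capsule and matrix genes tested, grouped by gene family; points are limma estimates and bars are 1 standard error. Each gene is shown by its probe set with the highest mean signal. All 6 laminin chains lie to the right of 0 and 16 of 23 collagen chains to the left, with Col8a1 at -1.62, and none passed an adjusted p of 0.05.

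Genes that process, cut or anchor to the matrix were read from lists chosen beside the 60 genes. Of 18 genes of collagen processing 12 were tested, of 24 matrix proteases and inhibitors 16, of 28 proteoglycans and other matrix proteins 21, and of 22 integrin adhesion genes 17; 0 passed in any of the 7 comparisons. At an unadjusted p under 0.05 for strain, averaged, there were 3 higher in C57BL/6J in collagen processing, 1 lower among the proteases and inhibitors, 2 higher among the proteoglycans and 0 in adhesion, where 3.65% of all probe sets were higher and 3.32% lower at that p. For the averaged KO effect the 4 lists gave 0, 0, 3 (all higher in KO) and 0, where 1.36% of all were higher and 1.69% lower. The median strain ratios were 0.19, -0.04, 0.27 and 0.03 in the same order, against 0.01 over all probe sets.

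Serpinh1 (Hsp47), the chaperone that folds procollagen, had the lowest unadjusted p of the processing genes. Its signals were 175 and 1038 (129SvJae WT), 967 and 1046 (129SvJae KO), 1262 and 1589.7 (C57BL/6J WT) and 1472 and 1618 (C57BL/6J KO). All C57BL/6J arrays were above all 129SvJae arrays, and 129SvJae WT replicate 1, the low array for Hspg2 and Sparc, was far below the rest. For Serpinh1 the averaged strain log2 ratio was 1.18 (SE 0.39, adjusted p = 0.417), and 0.53 without 129SvJae WT replicate 1. It passed in the fit blocked on scan session (1.77, adjusted p = 0.00110) and without 129SvJae WT replicate 2 (1.82, adjusted p = 0.000619), fits in which the low array alone stands for its group. Its averaged KO log2 ratio was 0.68 (SE 0.39, adjusted p = 0.998) and that in 129SvJae 1.24 (SE 0.55, adjusted p = 0.9998). Both KO values also passed in those fits, at 1.27 and 2.43 with the session block (adjusted p = 0.0322 and 0.0195) and 1.32 and 2.52 without 129SvJae WT replicate 2 (adjusted p = 0.0274 and 0.00987). Without 129SvJae WT replicate 1 they were 0.039 and -0.045. Pcolce, which aids the trimming of procollagen, had a strain ratio of 0.45 (SE 0.19, adjusted p = 0.647), P4ha2, a prolyl hydroxylase of collagen, a ratio of 0.43 (SE 0.19, adjusted p = 0.698), or 0.27 without C57BL/6J WT replicate 2, and Plod3, a lysyl hydroxylase of collagen, a KO ratio of 0.65 (SE 0.45, adjusted p = 0.998).

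Timp3, the metalloproteinase inhibitor that binds to matrix, had signals of 1897 and 1512 (129SvJae WT), 1244 and 1755 (129SvJae KO), 920.3 and 1199.7 (C57BL/6J WT) and 1005 and 1427 (C57BL/6J KO) and a strain log2 ratio of -0.50 (SE 0.19, adjusted p = 0.528). Its relative Timp2 had a strain ratio of 0.37, and the membrane proteases Mmp14 and Adam10 had KO ratios of -0.39 and 0.20. Sdc4, a cell surface heparan sulfate proteoglycan that works with integrins, had signals of 105 and 171 (129SvJae WT), 239.5 and 81.3 (129SvJae KO), 311 and 313 (C57BL/6J WT) and 252 and 374 (C57BL/6J KO). Every C57BL/6J array was above every 129SvJae array, with a strain ratio of 1.18 (SE 0.37, adjusted p = 0.361). Mfap2, a microfibril protein, had signals of 772 and 1142 (129SvJae WT), 1554 and 1560.0 (129SvJae KO), 1384 and 1605 (C57BL/6J WT) and 1527 and 1733 (C57BL/6J KO). Both 129SvJae WT arrays were below the other 6. Its averaged strain ratio was 0.37 (SE 0.17, adjusted p = 0.714), or 0.22 without 129SvJae WT replicate 1, and its averaged KO ratio 0.43 (SE 0.17, adjusted p = 0.998).

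The 3 list genes at an unadjusted p under 0.05 for the averaged KO effect were Mfap2, above, and the dim Fbn2 and Matn2, which passed the level filter only through C57BL/6J KO, so that their ratios are set against signals near background. Fbn2, the fibrillin of young microfibrils, had signals of 45.2 and 19.9 (129SvJae WT), 62.1 and 37.0 (129SvJae KO), 22.8 and 13.8 (C57BL/6J WT) and 148 and 106 (C57BL/6J KO) and an averaged KO log2 ratio of 1.75 (SE 0.64, adjusted p = 0.998), which was 0.74 with signals under 50 set to 50. Matn2, a matrilin of basement membranes and other matrix, had signals of 14.8 and 14.7 (129SvJae WT), 25.2 and 59.3 (129SvJae KO), 9 and 25.7 (C57BL/6J WT) and 113 and 65.9 (C57BL/6J KO) and a ratio of 1.95 (SE 0.75, adjusted p = 0.998), or 0.45 with that setting. Of the adhesion genes, Vcl (vinculin) and Lims1 had strain ratios of -0.91 (SE 0.43, adjusted p = 0.732) and -0.34 (SE 0.17, adjusted p = 0.763), and the tetraspanin Cd9 and the kinase Src had KO ratios of -0.68 (SE 0.39, adjusted p = 0.998) and 0.88 (SE 0.62, adjusted p = 0.998). In 129SvJae Cd9 had signals of 209 and 305 in WT and 56.4 and 186 in KO lenses and a KO ratio of -1.30 (SE 0.56, adjusted p = 0.9998), which was -0.44 without 129SvJae KO replicate 1 and -2.16 without 129SvJae KO replicate 2.

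Markers of tissues that a dissected lens could carry were read on the same arrays. For vascular endothelium 2 of the 9 markers on the array were above 50 on all arrays, and the summed signal was 849 to 952 in 129SvJae WT, 565 to 926 in 129SvJae KO, 767 to 893 in C57BL/6J WT and 817 to 1172 in C57BL/6J KO. For fibroblasts and mesenchyme 1 of 7, Pdgfra, was above 50 on all arrays and Twist1 was on none. The sums of 1134 to 1620 came mostly from Pdgfra, at 828 to 1314.5. For pericytes and smooth muscle 3 of 7 were above 50 on all arrays, with sums of 1214 to 2416. For retina 0 of 7 were above 50 on all arrays and Rcvrn on none. The retina sum was 1187 on 129SvJae WT replicate 1, with Sag at 476, against 206 to 615 on the other arrays; the part of this in the low Hspg2, Sparc and Serpinh1 signals of that array was not tested. For macrophages the sums of 2318 to 6340 came mostly from C1qb, and Adgre1, Lyz2 and C1qa were above 50 on no array. No marker gene of these or of the corneal, pigment cell, blood and skeletal muscle lists passed the averaged strain or KO comparison.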

How the data were processed

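Lens RNA of 8 samples was hybridised to MG-U74Av2 arrays, and the intensity values deposited by the authors are linear signals scaled to a mean of 250, from MAS5 according to the submitters' processing notes, which give no version. Probe-level data and detection calls were not used here, and no genome build of the chip is given in the sources used here. The number of arrays limits the precision. From these values each array was rescaled to a mean of 250 with 2% trimmed at each end, and log2 was taken with 1 as the lowest signal allowed. The 66 control probe sets of the 12488 were dropped, and the 10078 whose mean passed 50 in any group were tested in R 4.3.3 with limma 3.58.1. The fit had 4 group means, a variance trend, 4 residual and 9.17 prior degrees of freedom, and Benjamini-Hochberg adjustment over all probe sets, and a gene passed at an adjusted p under 0.05. All 7 contrasts came from this fit. Ratios are C57BL/6J over 129SvJae or KO over WT, and paired signals are given as replicate 1 and then 2.

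Gene names came from the platform annotation, with 10833 probe sets of 1 symbol, 396 of several and 1193 of none. A gene table of GRCm38.p6 held 10817 of the 10833 and changed 0 symbols; it and the promoter windows come from RefSeq. The 60 genes and the lists were chosen with earlier results of these data known. Genes named were the basement membrane core, fibrillar chains and lens integrins, those with the lowest p in each contrast, those whose probe sets differ in sign, and the lowest-p genes of each list; others are covered by counts, and a few were named after their values were seen. Deviations of same-numbered arrays from their group means correlated at r = 0.130 to 0.206 in all 6 pairs of groups, so replicate numbers pair the arrays; the number follows the scan session in the run records. Alternatives were other scalings, floors and level filters, no variance trend, a block for replicate number or for scan session, the methods' t-test (pooled variance, on log2 signals), each array left out, and all probe sets of a gene. Correlations of 3 pairs of genes used exact two-sided permutation tests. The fits were tested on simulated data.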

Additional observations from a re-analysis of the deposited data

How the results depend on the processing

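With 2 arrays per group and signals near 50 close to background, these data limit what a missed threshold can say. Over 20 alternatives the count of capsule and matrix genes passing stayed at 0 for the strain difference in KO lenses, the averaged KO effect, the KO effect in C57BL/6J and the interaction. It became 1 (Hspg2) with the scan session as a block for the averaged strain difference, the strain difference in WT lenses and the KO effect in 129SvJae, and ran from 0 to 1 over arrays left out for both strain comparisons (1 without 129SvJae WT replicate 2). Of the 49 gene and contrast results with an unadjusted p under 0.05, list genes included, 947 of 951 alternatives kept the direction. Many of these could not change it. Leaving out an array outside the contrast, or changing only the variance model or the level filter, keeps the ratio as it was. The 49 were also picked by their p on these same arrays, so the count does not measure how stable a direction is. Among the other results 73 of 1255 moved by over 1 SE. Alternatives that passed were all of Hspg2 or Serpinh1, in fits where the low array alone stands for 129SvJae WT.

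Reversed were the strain ratio of Itgb1bp1 in KO lenses (0.37 with the mean of its probe sets), that of Lamc1 in WT lenses (0.11 with both arrays of the highest actin ratio left out, an alternative chosen after seeing the data), the KO ratio of Serpinh1 in 129SvJae (-0.045 without 129SvJae WT replicate 1, alone or with the other array of high actin ratio; with single arrays left out it ran from there to 2.52), and the r of Col4a1 with Col4a2 (-0.327 with arrays centred on the median, -0.0914 less group means). The causes were not tested.

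The replicate block passed 0 of the 50 genes in every contrast, and 58, 16 and 0 of all probe sets for strain averaged, strain in WT and KO in C57BL/6J, where the fit without it passed 37, 7 and 1. Over all probe sets, the counts for strain averaged, strain in WT, strain in KO, KO averaged and KO in C57BL/6J (37, 7, 9, 2 and 1) were 19, 4, 3, 1 and 1 with arrays centred on the median, 1, 0, 0, 0 and 0 without a variance trend, and 20, 1, 0, 0 and 0 by the methods' t-test. Blocking on scan session, the first 3 were 86, 38 and 15, KO in 129SvJae was 3 in place of 0, and KO in C57BL/6J was 2. The KO count was 1 averaged and 0 in C57BL/6J with no level filter, and that in C57BL/6J was 0 also with quantile normalization, a floor of 50 or a mean above 100. With both arrays of the highest actin ratio left out, KO in 129SvJae gave 3 and KO in C57BL/6J 2. Leaving out each array in turn gave 18 to 51 for strain averaged, 4 to 31 in WT, 2 to 11 in KO, 0 to 3 for KO averaged, 0 to 3 in 129SvJae, 0 to 2 in C57BL/6J and 0 to 1 for the interaction.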
